A study of Homo sapiens with 29 samples.

Results

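The early growth response (EGR) and NR4A immediate early factors were followed in BEAS-2B cells after 24 h with N-OH-PhIP. BEAS-2B is a line of bronchial epithelium from a human donor, made immortal by infection with a hybrid of adenovirus and SV40. N-OH-PhIP is the N-hydroxylated, DNA-reactive metabolite of PhIP, a heterocyclic amine formed in cooked meat and tobacco smoke. Probe sets were taken when the array annotation gave them 1 of 8 gene symbols, which were EGR1, EGR2, EGR3, NR4A1, NR4A2, NR4A3, IER2 and NAB2. This gave 16 of the 54613 non-control probe sets, for 7 of the 8 genes, among 19775 genes with a probe set of their own. EGR2 was not analysed here. Of the 16 probe sets, 13 were bright enough on average to be tested, among 27304 tested in all. NR4A1 211143_x_at and NR4A2 204621_s_at passed the brightness filter only through the 500 and 1000 nM arrays, since over the 23 other arrays their mean log2 values (5.66 and 5.48) lay under the filter at 5.74. Leaving these out left 11 probe sets and changed no count of calls from 0.1 to 100 nM against DMSO. The genes were selected on measured values of these arrays, with the rise of EGR3 and NR4A1 at 500 or 1000 nM against DMSO known beforehand. The values at these doses against DMSO, against 100 nM or against each other are therefore given as a description, with no test.

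Cultures received 0.1, 0.5, 1, 5, 10, 50, 100, 500 or 1000 nM N-OH-PhIP, or DMSO alone, and DMSO stood at 1% in every culture. Each dose and the DMSO control had 3 arrays, except 0.5 nM with 2, for 29 arrays in all. The medium was serum-free and all cells were of 1 line, so the replicates measure the spread between cultures. Each value is for a whole culture, and fewer cells holding a transcript cannot be told apart from less of it per cell. Doses follow the sample titles, whose lowest is 0.1 nM, while the design text starts at 0.5 nM. All 6 epithelial markers on the array passed the brightness filter, and none of the leukocyte (2) or endothelial (3) markers did. COL1A1, a fibroblast marker, was the 1 of 4 that passed, and of 4 markers of differentiated airway cells MUC5AC (73.5 to 97.7 over the groups) and SFTPC (423 to 603) passed while SCGB1A1 and FOXJ1 did not. Trimmed mean intensity was 299 to 309 across arrays.

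Immediate early genes are transcribed within minutes of a stimulus without new protein synthesis, and their short-lived transcripts follow the current activity of signalling pathways. EGR1 and EGR3 encode zinc finger transcription factors that bind GC-rich sites, and NAB2 encodes a corepressor that binds EGR proteins and limits their activity. NR4A1, NR4A2 and NR4A3 are orphan nuclear receptors whose ligand pocket is closed, so that their amount largely sets their activity. IER2 is a small nuclear protein induced with them. EGR genes are classic targets of ERK signalling through serum response factor (SRF), which binds CArG boxes, whereas NR4A genes are classic targets of CREB, which binds TGACG half-sites.

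The promoters of EGR1 and NR4A3 are printed because EGR1 was lower at the low doses and NR4A3 had the largest rise of these genes at high doses. Each line holds the 250 bases before the RefSeq start in GRCh38.p14, read on the plus strand at chr5:138465229-138465478 for EGR1 and at chr9:99821635-99821884 for NR4A3. Capitals mark CArG boxes (CC, 6 bases of A or T, GG) and TGACG on either strand, which reads CGTCA on the minus strand.
EGR1: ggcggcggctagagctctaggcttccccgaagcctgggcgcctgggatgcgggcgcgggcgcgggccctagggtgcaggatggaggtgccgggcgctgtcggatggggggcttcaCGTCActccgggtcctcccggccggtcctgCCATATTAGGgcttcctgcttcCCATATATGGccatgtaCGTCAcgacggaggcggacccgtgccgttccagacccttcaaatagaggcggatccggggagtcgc
NR4A3: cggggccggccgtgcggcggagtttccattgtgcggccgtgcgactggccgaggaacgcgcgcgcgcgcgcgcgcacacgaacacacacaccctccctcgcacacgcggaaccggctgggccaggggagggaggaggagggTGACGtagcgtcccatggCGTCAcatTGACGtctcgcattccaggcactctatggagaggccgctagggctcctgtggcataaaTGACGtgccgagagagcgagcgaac
The EGR1 window held 2 CArG boxes, CCATATTAGG at 105 to 96 and CCATATATGG at 83 to 74 bases before the start, and 2 TGACG matches. The NR4A3 window held no CArG box and 4 TGACG matches, the nearest at 25 to 21 bases. The motifs searched do not overlap in either window. Of 35116 promoters searched over the same length, 1.16% held a CArG box and 21.2% held TGACG. The IER2 window held 1 TGACG, and the NR4A1 windows held neither motif. The EGR site GCGNGGGCG, found in 8.41% of promoters, had 1 match each in the EGR1 and NAB2 windows. These matches are descriptions of sequence and do not show binding.

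At the lowest doses the EGR genes, IER2 and NR4A3 were lower than in DMSO, and no probe set of the 7 genes was called higher. At 0.1 nM, 5 of the 13 tested probe sets were called lower, where 0.597% of all tested probe sets were called in either direction and 0.487% lower (limma, Benjamini-Hochberg adjusted p under 0.05). At 1 nM 5 were called, all lower, where 0.78% of all tested were called and 0.575% were lower. At 5 nM 4 were called, all lower, where 1.11% were called and 0.769% were lower. At 0.5 nM, with 2 arrays, limma called none of them, 5 had an unadjusted p under 0.05, and 0.0439% of all tested were called. Of 12173 genes, each read by 1 probe set, 1131 had an unadjusted p under 0.05 at 0.5 nM. The median log2 change of the 13 probe sets was -0.32 at both 0.1 and 1 nM, where that of all tested probe sets was -0.01 and 0.01.

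EGR1 had 3 probe sets, whose means were all lower than in DMSO from 0.1 to 5 nM, by unequal amounts. Probe set 201693_s_at read 192, 153 and 173 at 0.1 nM, against 520, 644 and 609 in DMSO. It read 366 and 201 at 0.5 nM, then 85.3, 207 and 186 at 1 nM, then 109, 190 and 146 at 5 nM. All 11 arrays from 0.1 to 5 nM lay below all 3 DMSO arrays. The log2 change was -1.68 ± 0.25 at 0.1 nM (SE, adjusted p = 0.0011), -1.87 ± 0.25 at 1 nM (adjusted p = 0.00026) and -1.91 ± 0.25 at 5 nM (adjusted p = 0.00019), the last a 3.76-fold lower value on this scale. At 0.5 nM it was -1.07 ± 0.28 and did not pass (adjusted p = 0.13).

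From 10 nM upward this probe set lay near the DMSO level, and no dose passed the test against DMSO at 10, 50 or 100 nM (adjusted p = 1, 0.64 and 0.46). It read 574, 595 and 591 at 10 nM, then 474, 507 and 332 at 50 nM, and 525, 293 and 537 at 100 nM. It read 410, 636 and 612 at 500 nM and 747, 613 and 607 at 1000 nM. In the order of means, 5, 1 and 0.1 nM were lowest and overlapped, and both 0.5 nM arrays at 366 and 201 lay above the 0.1 nM arrays. The 0.5 nM arrays overlapped those at 50 nM, and from there each group overlapped its neighbour up to 1000 nM.

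Probe set 201694_s_at, a bright one, read 6984, 7224 and 6990 at 0.1 nM, against 9596, 9767 and 9618 in DMSO. It read 8394 and 7817 at 0.5 nM, then 5835, 7699 and 7681 at 1 nM and 5910, 7594 and 7297 at 5 nM. All 11 of these arrays lay below the DMSO arrays. Its log2 change was -0.45 ± 0.09 at 0.1 nM (adjusted p = 0.0099), -0.46 ± 0.09 at 1 nM (adjusted p = 0.0069) and -0.49 ± 0.09 at 5 nM (adjusted p = 0.0039). At 10 nM it read 9436, 9763 and 9571, again at the DMSO level. The calls at 0.1 and 1 nM were each lost without DMSO replicate 2 or without 1 array of the dose (0.1 nM replicate 3, 1 nM replicate 1), with adjusted p of 0.052 to 0.075 and 0.056 to 0.079. The 5 nM call was lost with only the 5 nM and DMSO arrays in the fit (adjusted p = 0.065).

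Probe set 227404_s_at moved least. It read 8565, 8615 and 8218 at 0.1 nM, against 10149, 9549 and 9519 in DMSO, so that the groups did not overlap. Its log2 change was -0.20 ± 0.06 at 0.1 nM (adjusted p = 0.12), -0.21 ± 0.06 at 1 nM (adjusted p = 0.091) and -0.22 ± 0.06 at 5 nM (adjusted p = 0.063), and none passed. The 95% intervals at 0.1 nM were -2.21 to -1.16 for 201693_s_at and -0.63 to -0.28 for 201694_s_at. The difference between the EGR1 probe sets was not itself tested, so the size of the fall in EGR1 transcript is not settled by these arrays.

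EGR3, read by probe set 206115_at, fell in the same dose range. It read 20.5, 31.8 and 32.5 at 0.1 nM, against 79, 99.1 and 122 in DMSO. It read 57.1 and 43.2 at 0.5 nM, 26, 31.5 and 32.6 at 1 nM, and 26, 58.6 and 46.5 at 5 nM. Every array from 0.1 to 5 nM lay below every DMSO array and every array from 10 nM upward. The log2 change was -1.38 ± 0.19 at 0.1 nM (adjusted p = 0.00073), -1.32 ± 0.19 at 1 nM (adjusted p = 0.00067) and -0.98 ± 0.19 at 5 nM (adjusted p = 0.01). At 0.5 nM it was -0.80 ± 0.22, short of the threshold (adjusted p = 0.13). The 5 nM call was lost without DMSO replicate 2, DMSO replicate 3 or 5 nM replicate 1 (adjusted p = 0.062 to 0.073). It was also lost with only the 5 nM and DMSO arrays in the fit (adjusted p = 0.15).

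IER2, read by 202081_at, was lower by a smaller amount. It read 3391, 3722 and 3599 at 0.1 nM, against 4621, 5078 and 4822 in DMSO. It read 4298 and 3978 at 0.5 nM, 2986, 3444 and 3111 at 1 nM, and 2897, 3733 and 3635 at 5 nM, all below the DMSO arrays. The log2 change was -0.44 ± 0.08 at 0.1 nM (adjusted p = 0.0071), -0.60 ± 0.08 at 1 nM (adjusted p = 0.00022) and -0.51 ± 0.08 at 5 nM (adjusted p = 0.0015). The 0.1 nM call was lost without DMSO replicate 2 or 0.1 nM replicate 1 (adjusted p = 0.052 to 0.086). With only the 5 nM and DMSO arrays in the fit, the 5 nM call was lost (adjusted p = 0.078).

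NR4A3, read by 209959_at, was lower at 0.1 and 1 nM and not at 0.5 nM. It read 76.6, 70.6 and 78.9 at 0.1 nM, against 114, 112 and 110 in DMSO. It read 120 and 106 at 0.5 nM, where the log2 change was 0.01 (adjusted p = 0.98), and 68, 76.5 and 79 at 1 nM. The log2 change was -0.49 ± 0.10 at 0.1 nM (adjusted p = 0.02) and -0.50 ± 0.10 at 1 nM (adjusted p = 0.014). Leaving out any 1 of 5 of the 6 arrays, all but DMSO replicate 1, ended the 0.1 nM call (adjusted p = 0.053 to 0.12), and DMSO replicate 2 or 1 nM replicate 1 ended the 1 nM call (adjusted p = 0.081 to 0.12). At 5 nM it read 92.2, 94.8 and 89.3, below the DMSO arrays, and did not pass (adjusted p = 0.24).

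The 5 tested probe sets of NR4A1 and NR4A2 had no call in limma from 0.1 to 100 nM. At an unadjusted p under 0.05, 3 of the 5 were lower at 0.1 nM, 3 at 1 nM and 2 at 5 nM. NR4A1 probe set 202340_x_at read 39.8, 42.5 and 43.5 at 0.1 nM, against 50.9, 59 and 58.8 in DMSO, without overlap (log2 change -0.32 ± 0.12, adjusted p = 0.27). NAB2, the EGR corepressor, gave no call at the low doses (limma, 1 probe set at an unadjusted p under 0.05, at 0.5 nM). Its probe set 212803_at read 162, 172 and 180 at 0.1 nM, against 166, 163 and 205 in DMSO, and the groups overlapped.

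**Figure D1:**
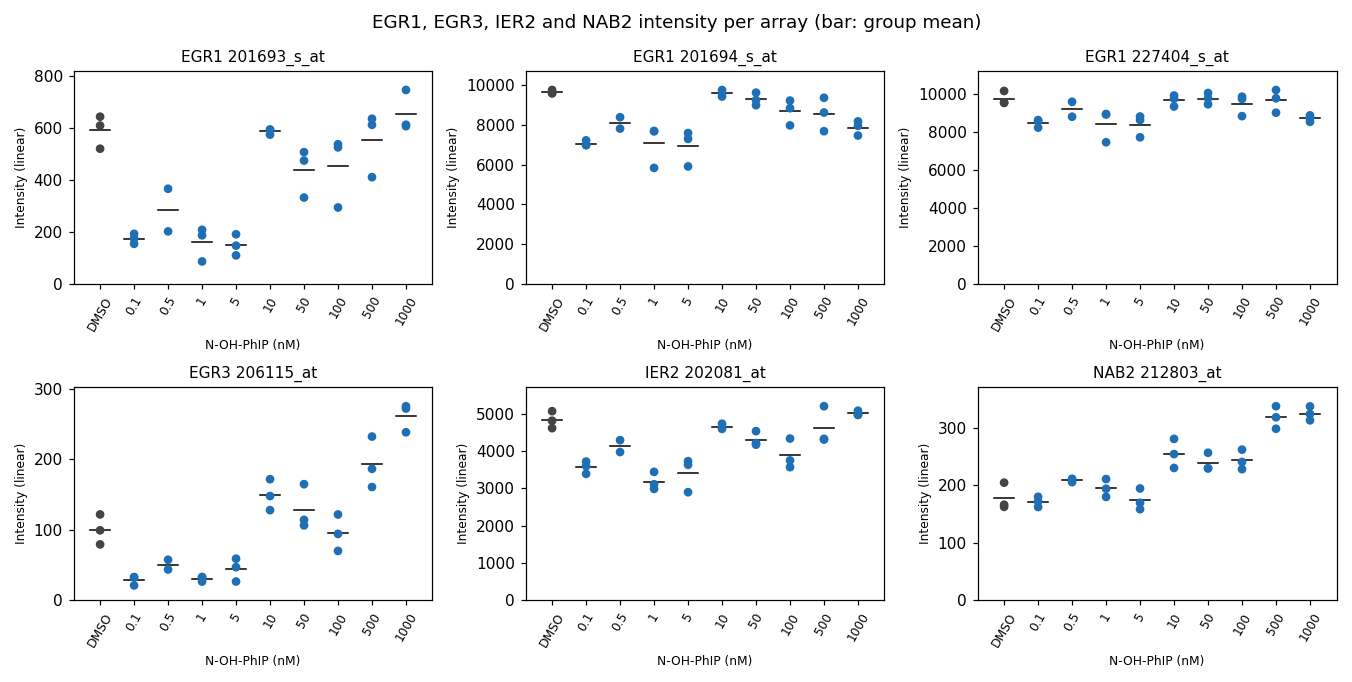
Intensity on a linear scale (vertical axis) of the tested EGR1, EGR3, IER2 and NAB2 probe sets on each array (points, with group means as bars), by N-OH-PhIP dose in nM with DMSO at the left; NAB2 216017_s_at is not drawn. The 11 arrays from 0.1 to 5 nM lie below the 3 DMSO arrays for EGR1 201693_s_at, EGR3 and IER2, and NAB2 steps up at 10 nM.

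The mean 3′ to 5′ ratio of the actin and GAPDH control probe sets moved in the same dose range, mostly through actin. This ratio is a measure of RNA integrity and amplification. Its mean log2 value was 1.22 ± 0.05 at 0.1 nM and 1.25 ± 0.08 at 0.5 nM, against 1.17 ± 0.04 in DMSO (SD, n = 3, and 2 at 0.5 nM). It was highest at 1 nM with 1.35 ± 0.06 and stood at 1.25 ± 0.06 for the 5 nM arrays. It was 1.16 ± 0.05 at 10 nM and fell to 0.93 ± 0.08 at 500 nM and 0.84 ± 0.02 at 1000 nM. With this ratio as a covariate, EGR1 201693_s_at kept its log2 change, at -1.72 ± 0.26 at 0.1 nM (adjusted p = 0.0021) and -1.96 ± 0.27 at 5 nM (adjusted p = 0.00045). EGR3 kept -1.33 ± 0.20 at 0.1 nM (adjusted p = 0.0021). At 1 nM, where the ratio was highest, the calls of EGR3 (-1.11 ± 0.26, adjusted p = 0.076), IER2 (-0.46 ± 0.10, adjusted p = 0.066) and EGR1 201694_s_at (-0.37 ± 0.11, adjusted p = 0.16) were lost. Those of EGR1 201693_s_at (-1.98 ± 0.34, adjusted p = 0.023) and NR4A3 (-0.65 ± 0.13, adjusted p = 0.044) were kept at 1 nM.

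All of these dose comparisons use the same 3 DMSO arrays. A contrast without them set the mean of 10, 50 and 100 nM (9 arrays) against the mean of 0.1, 0.5 and 1 nM (8 arrays). In it 10 of the 13 probe sets were called (9 of the 11 that pass the filter without the high doses), all higher at the middle doses, where 6.03% of all tested were called in either direction and 4.03% higher. The median log2 difference of the 13 was 0.31, and that of all tested probe sets was 0.02. EGR3 differed by 1.42 ± 0.12 (2.68-fold, adjusted p = 3.5e-08) and EGR1 201693_s_at by 1.25 ± 0.15 (2.38-fold, adjusted p = 1.1e-05). EGR1 201694_s_at differed by 0.31 ± 0.05 (adjusted p = 0.00034) and 227404_s_at by 0.15 ± 0.04 (adjusted p = 0.011). NR4A3 209959_at differed by 0.54 ± 0.06 (adjusted p = 3.9e-06), NAB2 212803_at by 0.34 ± 0.06 (adjusted p = 0.00041) and IER2 by 0.24 ± 0.05 (adjusted p = 0.0026).

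NR4A1 202340_x_at was higher at the middle doses by 0.33 ± 0.07 (adjusted p = 0.0081). NR4A1 211143_x_at differed by 0.24 ± 0.06, given with no test since it passed the filter only through the high doses. NR4A2 was called by 1 of its 3 probe sets, 216248_s_at (0.34 ± 0.10, adjusted p = 0.038), a call lost on leaving out any of 13 of the 17 arrays. Without 0.5 nM replicate 3, only 6 of the 13 probe sets were called, and those of NR4A1 202340_x_at (adjusted p = 0.07) and EGR1 227404_s_at (adjusted p = 0.077) were among those lost.

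With the 3′ to 5′ ratio as a covariate, 5 of the 13 kept the call at the middle against the low doses. These were EGR3 (1.28 ± 0.16, adjusted p = 0.00018), EGR1 201693_s_at (1.33 ± 0.22, adjusted p = 0.002), EGR1 201694_s_at (0.25 ± 0.07, adjusted p = 0.046), NR4A3 (0.63 ± 0.08, adjusted p = 2e-04) and NAB2 212803_at (0.34 ± 0.08, adjusted p = 0.023). IER2 lost it (0.15 ± 0.06, adjusted p = 0.15), as did EGR1 227404_s_at (0.12 ± 0.05, adjusted p = 0.14), NR4A1 202340_x_at (0.33 ± 0.11, adjusted p = 0.07) and NR4A2 216248_s_at (0.15 ± 0.13, adjusted p = 0.48). NR4A1 211143_x_at stood at 0.15 ± 0.08. The 5 that kept the call all pass the brightness filter without the high-dose arrays. The share of all tested probe sets called with the covariate was not counted.

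**Figure D2:**
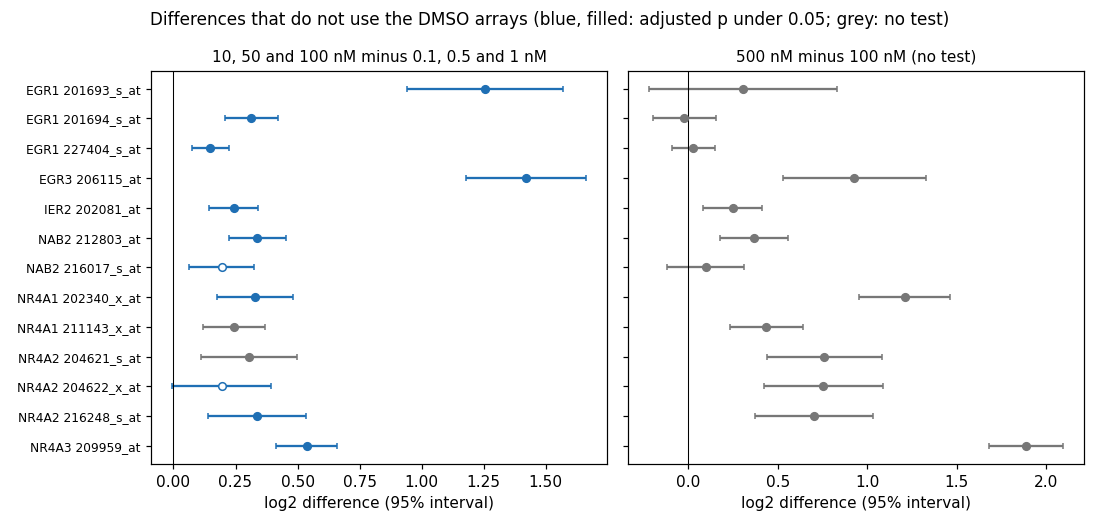
Log2 differences (points) with 95% intervals (bars) for the 13 tested probe sets in contrasts that do not use the DMSO arrays. In the left panel, where grey marks probe sets that passed the filter only through the high doses, EGR3 (1.42) and EGR1 201693_s_at (1.25) lie farthest to the right, and in the right panel, a description with no test, NR4A3 lies at 1.88.

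The middle doses themselves lay near DMSO for most of these genes. At 10 nM 1 of the 13 probe sets was called (0.242% of all tested), at 50 nM none (0.264% of all tested) and at 100 nM 2 (2.9% of all tested). At 50 nM 4 of the 13 had an unadjusted p under 0.05 in limma, as had 1071 of 12173 genes each read by 1 probe set. NAB2 212803_at was the one called at 10 nM. It read 255, 281 and 230, against 166, 163 and 205 in DMSO, with no overlap (0.49 ± 0.09, adjusted p = 0.029). It stayed at 230, 230 and 257 at 50 nM (0.40 ± 0.09, adjusted p = 0.069) and at 241, 228 and 263 at 100 nM (0.43 ± 0.09, adjusted p = 0.008). The 10 nM call was lost on leaving out DMSO replicate 1 or 2 or 10 nM replicate 1 or 2 (adjusted p = 0.065 to 0.21), and the 100 nM call without DMSO replicate 1 or 2 or 100 nM replicate 3 (adjusted p = 0.051 to 0.069).

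IER2 was the other probe set called at 100 nM, lower, with 3752, 3570 and 4341 at 100 nM, against 4621, 5078 and 4822 in DMSO (-0.32 ± 0.08, adjusted p = 0.024). This call was lost without DMSO replicate 2 or 3 or 100 nM replicate 1 or 2 (adjusted p = 0.061 to 0.14). EGR3 read 148, 172 and 128 at 10 nM, above the DMSO arrays without passing (0.52 ± 0.19, adjusted p = 0.25).

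At 500 and 1000 nM NR4A3 differed most from DMSO among the 13 tested probe sets of these genes. Its probe set 209959_at read 506, 550 and 541 at 500 nM and 857, 653 and 670 at 1000 nM, against 114, 112 and 110 in DMSO. It averaged 532 ± 23.3 at 500 nM and 727 ± 113 at 1000 nM, against 112 ± 2.12 in DMSO (SD, n = 3 each). Both high doses lay clear of all other groups and of each other. The log2 difference from DMSO was 2.10 ± 0.10 at 500 nM (4.29-fold) and 2.53 ± 0.10 at 1000 nM (5.77-fold), given without a test. Between 100 and 500 nM, the first dose step at which NR4A3 left the range of the lower groups, the difference was 1.88 ± 0.10 (3.69-fold), also without a test.

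The other NR4A3 probe sets were too dim on average to be tested. Probe set 207978_s_at read 32, 16.2 and 34.4 at 500 nM and 73.1, 57.8 and 48.9 at 1000 nM, against 7.54, 11.8 and 10.2 in DMSO. It stood between 8.58 and 14.0 on every array from 0.1 to 100 nM, so that its high-dose arrays did not overlap the rest. Probe set 216979_at stayed between 10.7 and 17.7 on all arrays and showed no such rise.

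NR4A2 rose in steps over the same doses. Probe set 204622_x_at read 201, 159 and 325 at 500 nM and 452, 418 and 410 at 1000 nM, against 87.6, 96.4 and 117 in DMSO. All 3 NR4A2 probe sets were higher at 500 nM, by 0.79 to 1.02, and at 1000 nM, by 1.72 to 1.93. With the 3′ to 5′ ratio as a covariate the differences at 500 nM were 0.48 ± 0.24 for 204621_s_at, 0.78 ± 0.25 for 204622_x_at and 0.57 ± 0.24 for 216248_s_at, and those at 1000 nM were 1.30 to 1.60. The step from 500 to 1000 nM, given with no test, was 0.91 ± 0.16 for 204622_x_at and 0.92 ± 0.16 for 216248_s_at. It was 0.93 ± 0.16 for 204621_s_at, which passed the brightness filter only through its high-dose arrays. At 500 nM replicate 3 was the highest array of 204622_x_at and of 216248_s_at (155, beside 104 and 72.5), and it lay above its group mean in 12 of the 13 probe sets.

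NR4A1 reached its level at 500 nM. Probe set 202340_x_at read 141, 142 and 167 at 500 nM and 150, 162 and 111 at 1000 nM, against 50.9, 59 and 58.8 in DMSO. The difference from DMSO was 1.20 ± 0.12 at 500 nM and 1.11 ± 0.12 at 1000 nM. Without a test, 1000 nM differed from 500 nM by -0.09 ± 0.12 (95% interval -0.35 to 0.16). Probe set 211143_x_at gave smaller differences from DMSO, 0.44 ± 0.10 at 500 nM and 0.55 ± 0.10 at 1000 nM, and with the 3′ to 5′ ratio as a covariate 0.24 ± 0.16 and 0.27 ± 0.19. With the same covariate 202340_x_at gave 1.21 ± 0.20 and 1.13 ± 0.25. The third, 210226_at, was untested and stayed between 14.6 and 23.3 on all arrays. The suffix x_at marks probe sets whose probes may also match other transcripts.

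**Figure D3:**
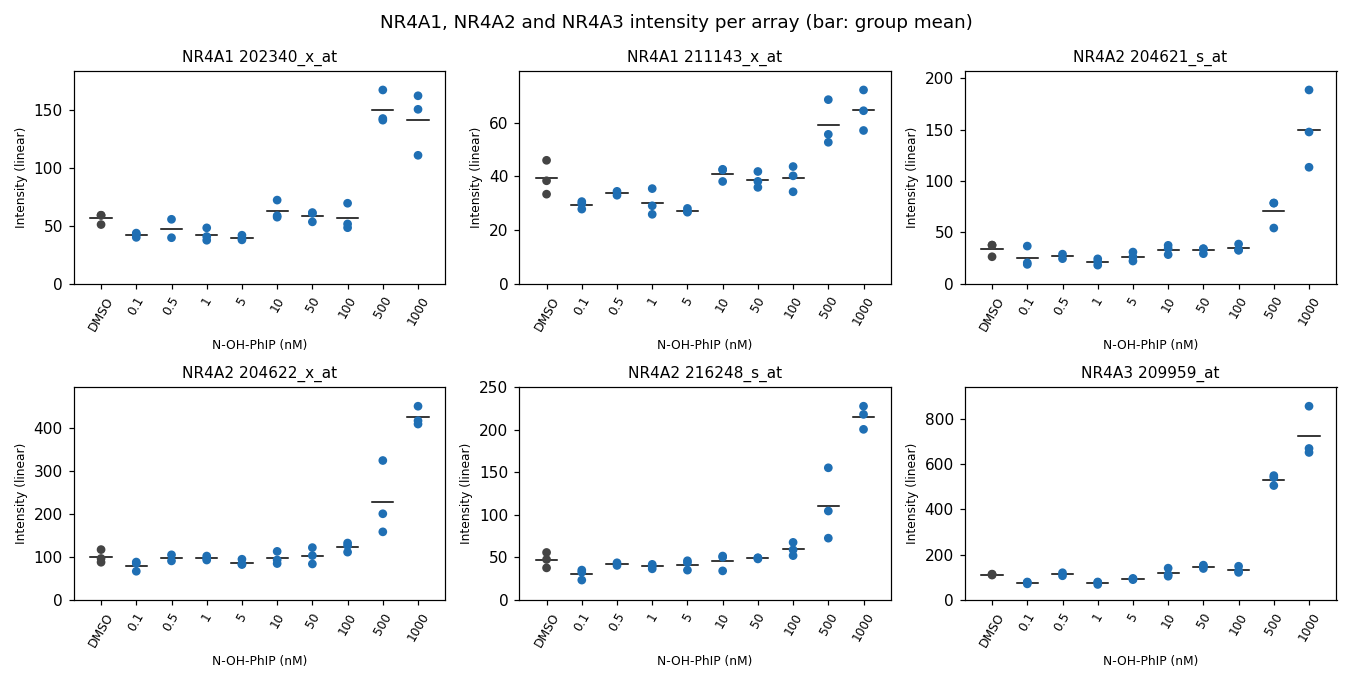
Intensity on a linear scale (vertical axis) of the 6 tested NR4A probe sets on each array (points, with group means as bars), by N-OH-PhIP dose in nM with DMSO at the left. NR4A3 reaches 506 to 550 at 500 nM and 653 to 857 at 1000 nM, and NR4A1 202340_x_at lies between 111 and 167 at both doses.

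Within the EGR family the high doses separated EGR3 from EGR1. EGR3 read 187, 161 and 233 at 500 nM and 276, 239 and 273 at 1000 nM, against 79, 99.1 and 122 in DMSO, and differed by 0.86 ± 0.19 at 500 nM and 1.28 ± 0.19 at 1000 nM. With the 3′ to 5′ ratio as a covariate these were 0.57 ± 0.31 and 0.88 ± 0.38. Its 500 nM arrays overlapped those at 10 nM, and its 1000 nM arrays lay above all others. The step from 500 to 1000 nM was 0.42 ± 0.19, and 0.55 ± 0.21 without 500 nM replicate 3, both given with no test. EGR1 201693_s_at differed from DMSO by -0.11 ± 0.25 at 500 nM and 0.14 ± 0.25 at 1000 nM, within the spread of the arrays.

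The bright EGR1 probe sets ran lower at 1000 nM. Probe set 201694_s_at read 7469, 7956 and 8182 at 1000 nM, against 9596, 9767 and 9618 in DMSO (-0.30 ± 0.09). Probe set 227404_s_at read 8711, 8862 and 8523 at 1000 nM, against 10149, 9549 and 9519 in DMSO. Between 500 and 1000 nM it changed by -0.15 ± 0.06, and by -0.11 ± 0.06 without 500 nM replicate 3, given with no test.

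NAB2 took a second step at 500 nM in 1 of its 2 tested probe sets. Probe set 212803_at read 338, 319 and 299 at 500 nM and 338, 325 and 314 at 1000 nM, above all arrays at lower doses. The difference from DMSO was 0.79 ± 0.09 at 500 nM and 0.82 ± 0.09 at 1000 nM. The dimmer NAB2 probe set 216017_s_at differed by 0.27 ± 0.11 and 0.22 ± 0.11. IER2 read 5090, 4986 and 4976 at 1000 nM, against 4621, 5078 and 4822 in DMSO, and the groups overlapped.

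Of the 13 probe sets, 9 were called at 500 nM against DMSO (45.4% of all tested), 10 at 1000 nM (59.9%) and 9 at 500 nM against 100 nM (35.7%). These comparisons entered the choice of genes, and nothing is read from these counts. At 1000 nM against 500 nM 5 were called, 4 higher and 1 lower (4 of the 11 that pass the filter without the high doses). There 43.3% of all tested were called, so the share of the members was near that of the array. This contrast is made of the same high-dose arrays, and nothing is read from its count either. The mean 3′ to 5′ ratio was also lowest at 500 and 1000 nM, through actin, as given above. With it as a covariate, 2 of the 13 were called at 500 nM against 100 nM. The share of all tested probe sets called in that fit was not counted, and nothing is read from this number.

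**Figure D4:**
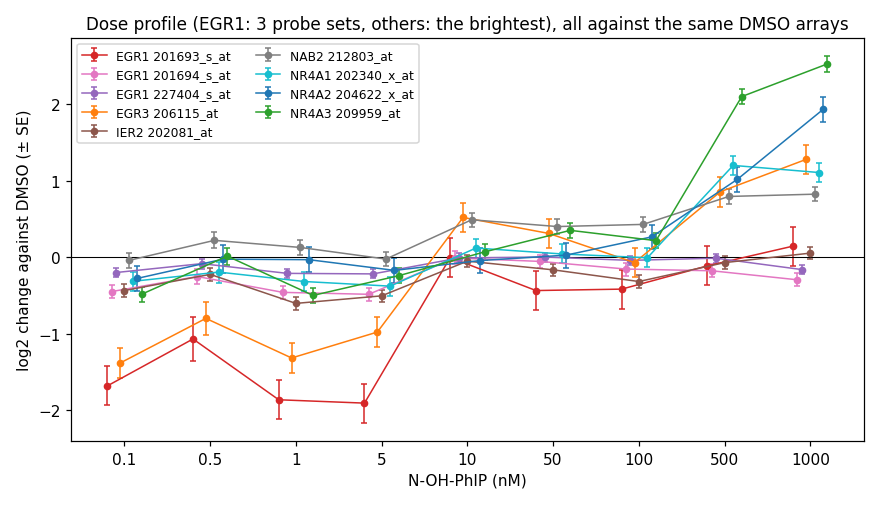
Log2 change against DMSO with SE (vertical axis) for the 3 EGR1 probe sets and the brightest of each other gene, by N-OH-PhIP dose in nM (equally spaced), all against the same DMSO arrays. EGR1 201693_s_at and EGR3 lie lowest from 0.1 to 5 nM, and NR4A3 reaches 2.53 at 1000 nM while EGR1 201693_s_at lies at 0.14.

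Other immediate early genes were examined in a list of 25, of which 24 were tested. At 0.1 nM 5 of the 24 were called lower, at 1 nM 8 and at 5 nM 10, with none higher. Among all 12173 genes, 41, 63 and 79 were called lower at these doses. The list's median log2 change was -0.42 at 0.1 nM, beside -0.00 over all genes. FOS, an AP-1 subunit and SRF target, changed by -1.70 ± 0.20 at 0.1 nM (adjusted p = 6.5e-05), and JUN, its partner, by -0.69 ± 0.08 (adjusted p = 5.2e-05). CCN2, which encodes a matricellular protein, changed by -1.08 ± 0.18 (adjusted p = 0.0023). JUN was also called lower than in DMSO at 0.5 nM (-0.55 ± 0.08, adjusted p = 0.0081). It was called lower again at 50 nM (-0.37 ± 0.08, adjusted p = 0.035) and 100 nM (-0.57 ± 0.08, adjusted p = 2.9e-05), while no gene of the list was called at 10 nM. At the middle against the low doses 18 of the 24 were called higher and none lower, beside 572 higher and 294 lower of 12173 genes.

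Genes that limit ERK signalling changed in the same doses. Of 8 tested, 3 were called lower at 0.1 nM and at 1 nM and 2 at 5 nM, with none higher. Over all 12173 genes, 41, 63 and 79 were called lower at 0.1, 1 and 5 nM. The Sprouty gene SPRY4 changed by -0.66 ± 0.13 at 0.1 nM (adjusted p = 0.013) and the ERK phosphatase gene DUSP5 by -0.63 ± 0.14 (adjusted p = 0.04). At the middle against the low doses 5 of the 8 were called higher, led by SPRY4 at 0.70 ± 0.08 (adjusted p = 3.2e-06). In that contrast 572 of 12173 genes were called higher and 294 lower. The genes of the ERK cascade itself gave no call in limma at 0.1 or 1 nM among 10 tested (2 and 0 at an unadjusted p under 0.05). Over all 12173 genes, 1353 and 1531 had an unadjusted p under 0.05 at 0.1 and 1 nM. At 5 nM MAP2K1, an ERK kinase, was called lower (-0.26 ± 0.06, adjusted p = 0.029).

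The transcription factors named above as regulators gave no call at low doses. None of 6 tested genes of SRF, its ETS partners and MRTF cofactors, and none of 5 tested genes of CREB and its coactivators, was called in limma from 0.1 to 5 nM. At an unadjusted p under 0.05 there were 2 of the 6 at 5 nM, 1 of the 5 at 1 nM and none otherwise. Over all 12173 genes, 1812 had an unadjusted p under 0.05 at 5 nM and 1531 at 1 nM. The most called at any of these doses were 40 higher and 79 lower, at 5 nM. At such rates lists of 5 or 6 genes would seldom hold a call, so its absence is not read as a result. List genes at 500 nM against 100 nM are given with no test, since the lists were chosen with earlier results known. In that contrast SRF was higher by 0.39 ± 0.11, and its cofactor MRTFB (-0.45 ± 0.04) and ETS partner ELK4 (-0.15 ± 0.05) were lower. CRTC3, a CREB coactivator, was lower there (-0.31 ± 0.07). Of the RXR genes, partners of NR4A1 and NR4A2, both tested members were higher in the same contrast (0.27 each for RXRA and RXRB). RXRA was lower at 1000 nM than at 500 nM (-0.60), also with no test. Over all 12173 genes, 2294 were called higher and 2620 lower at 500 nM against 100 nM. The EGR relatives and cofactors had 3 tested members and no call in limma at any dose from 0.1 to 100 nM, with 2 at 5 nM and 1 at 10 nM at an unadjusted p under 0.05. At these doses at most 225 of 12173 genes were called higher and 248 lower, both at 100 nM. Of the 12173, 1812 at 5 nM and 1487 at 10 nM had an unadjusted p under 0.05.

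Genes known as EGR1 targets in other systems gave no call where EGR1 was lower. None of the 13 tested was called in limma from 0.1 to 10 nM, where 1 to 5 had an unadjusted p under 0.05 at each dose. Over all 12173 genes, at most 40 were called higher and 79 lower at any of these doses, both at 5 nM. Between 1131 and 1812 of them had an unadjusted p under 0.05. At such rates 13 genes would seldom hold a call, so its absence is not read as a result. The median log2 change of the 13 was -0.05 at 0.1 nM, beside -0.00 over all genes. At the middle against the low doses 572 of all 12173 genes were called higher and 294 lower, and 3 of the 13 were called higher. These were CDKN1A, a cell cycle inhibitor and also a p53 target, at 0.21 ± 0.03 (adjusted p = 0.00018), ICAM1, an adhesion molecule, at 0.35 ± 0.08 (adjusted p = 0.009) and PDGFA, a growth factor chain, at 0.22 ± 0.06 (adjusted p = 0.022). CDKN1A was also higher than in DMSO at 50 nM (0.25 ± 0.05, adjusted p = 0.042) and 100 nM (0.43 ± 0.05, adjusted p = 1.3e-05). At 500 nM against 100 nM 5 were called higher and none lower, a count from which nothing is read, as the list was chosen with earlier results known. THBS1, which encodes thrombospondin, differed there by 1.43 ± 0.25 and GDF15, a stress cytokine, by 0.73 ± 0.07, with no test. Over all genes, 2294 were called higher and 2620 lower in that contrast.

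The genes whose log2 profiles were most like each member over the 29 arrays were ranked by Pearson correlation, as a description across arrays that share their dose groups. For EGR1 201693_s_at the nearest was FOS (r = 0.951), followed by SPRY4 (0.912) and MCL1 (0.903), an apoptosis regulator. FOS averaged 92.4 ± 17.1 at 0.1 nM, against 336 ± 44.0 in DMSO (SD, n = 3 each). For the bright EGR1 probe sets the nearest was instead ARRDC4, an arrestin-domain gene, at 0.879 for 201694_s_at and 0.798 for 227404_s_at, with TXNIP next for both (0.789 and 0.744). ARRDC4 averaged 541 ± 47.1 at 0.1 nM and 631 ± 79.4 at 1000 nM, against 797 ± 74.2 in DMSO, and so was low at both ends of the dose range as 201694_s_at was.

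EGR3 was nearest to MCL1 (0.947), CCN2 (0.941) and DUSP5 (0.935), and IER2 to FOS (0.927), MCL1 (0.919) and IER3 (0.883). NAB2 was nearest to EPHA2 (0.951), a receptor tyrosine kinase gene, and FOSL1 (0.945). NR4A1 was nearest to CITED2 (0.974), and NR4A2 to ILF2 (0.976). NR4A3 was nearest to SOCS3 (0.984), a cytokine signalling inhibitor, OVOL1 (0.983) and CLU (0.982).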

How the data were processed

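Amplified RNA (NuGEN Ovation) from 29 BEAS-2B cultures was hybridised to Affymetrix expression arrays. The values are linear intensity per probe set, as deposited by the authors; GCOS is named in the submitters' processing notes, without a version. They were positive throughout (4.26 to 20095) and already scaled to similar trimmed means. Genome build and algorithm settings are not given in the sources used here.

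GEO's platform annotation gave 1 gene symbol to 41091 of the 54675 probe sets (41043 matched RefSeq), several to 1801 and none to 11721, leaving 62 controls. Intensities were taken as log2(intensity + 16), which makes log2 changes of dim probe sets too small. The filter kept the brighter part of the array, from the median of the mean log2 values upward (5.74, intensity 37.4), or 27304 probe sets. limma 3.58.1 (R 4.3.3) fitted 10 group means (limma-trend, 19 residual degrees of freedom) with Benjamini-Hochberg adjustment (threshold 0.05) and was checked on simulated data. Folds are on the log2(intensity + 16) scale. Tables and figures used Python 3.11.15.

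The members, gene lists and tests were chosen with earlier results of these data known. A test of 500 nM against 100 nM was planned, and the members' values there are given without p-values because the 500 nM arrays entered their choice. The values of list genes there are given without p-values too. All member probe sets were named; from each list came up to 4 called genes of the largest change per contrast, and for each member the 3 genes of the highest correlation. Each list gene used its tested probe set of the highest mean. The number of arrays limits the precision. Replicates were separate cultures per the labels' protocols, with correlations of 0.980 to 0.998 within groups. Alternatives were offset, scaling, filter, variance trend, replicate block, arrays in the fit, the 3′ to 5′ ratio and leaving out each array.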

Additional observations from a re-analysis of the deposited data

How the results depend on the processing

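No probe set of the 7 genes changed direction with a call under any alternative, and 88 of the 96 counts of called probe sets outside the left-out arrays stayed within 1.5 times their value. Without the mean-variance trend 1 was called at 100 nM. With only the groups compared in the fit, the counts were 1 at 5 nM, 0 at 10 nM and 1 at 100 nM. With the 3′ to 5′ ratio as a covariate they were 2 at 1 nM, 4 at 500 nM against DMSO and 2 at 500 nM against 100 nM. At the middle against the low doses 5 were called with it. The shares of all tested probe sets called with the covariate were not counted, and the part of RNA quality was not tested otherwise. As above, nothing is read from counts that use the 500 or 1000 nM arrays. Leaving out 1 array gave 2 to 5 called at 0.1 nM, 0 to 0 at 0.5 nM, 3 to 5 at 1 nM, 3 to 5 at 5 nM, 0 to 1 at 10 nM, 0 to 1 at 50 nM and 0 to 1 at 100 nM. It gave 8 to 9 at 500 nM, 9 to 10 at 1000 nM, 8 to 9 at 500 nM against 100 nM, 4 to 6 at 1000 nM against 500 nM and 6 to 12 at the middle against the low doses. Each of the following settings gave 156 single probe set results, most of which had no call to lose. Calls lost were 4 with median centring, 3 without the level filter, 2 without the trend and 23 with the ratio as a covariate. With only the groups compared in the fit 9 were lost and 3 gained. With an array left out 56 were lost and 8 gained over 1066 results, again mostly without a call to lose.

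Replicate numbers were not treated as pairs. Deviations of same-numbered arrays at a dose and in DMSO correlated at -0.516 to 0.214, with 3 of 26 pairs over 0.1. Over all pairs of groups, same-numbered arrays had a median correlation of 0.014 (highest 0.746, with 37 of 126 over 0.1). Differently numbered arrays had a median of -0.0204 (highest 0.5, with 57 of 252 over 0.1). With a replicate block no count moved by over 1.5 times and 1 probe set gained a call, NR4A2 204621_s_at at the middle against the low doses (adjusted p = 0.038), which passed the brightness filter only through its high-dose arrays. Probe sets near background, such as EGR3 at low doses, have folds that depend on the offset.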
